A study of Mus musculus with 28 samples.

Results

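The common gamma chain cytokine axis was followed here through 9 genes in subcutaneous AB1-HA tumors, a transplanted mouse mesothelioma line, after chemotherapy, immune checkpoint blockade (ICB) or both. The genes were taken by symbol from the 55341 gene rows of the count matrices: the ligands Il15 and Il21, the receptor chains Il15ra, Il2rb, Il2rg and Il21r, the signal transducers Stat5a and Stat5b, and the feedback inhibitor Cish. The rule takes the genes by name alone, though they were proposed with earlier results of these data known, and all 9 were found and were abundant enough to be tested in every comparison. RNA came from 28 whole tumors, 1 per mouse, of BALB/c.AusBP mice, with 4 tumors given PBS, 5 given ICB, 5 given 5-FU, 4 given Cisplatin, 5 given 5-FU+ICB and 5 given Cisplatin+ICB. 5-FU, an antimetabolite, was injected intravenously at 75 mg/kg and cisplatin, a platinum DNA crosslinker, intraperitoneally at 6 mg/kg. ICB was 100 µg of anti-CTLA-4 with 100 µg of anti-PD-L1, followed by 2 further doses of anti-PD-L1, and tumors were taken 7 days after treatment began. The control mice received PBS and no antibody is named for them, and every tumor grew from the same AB1-HA line, so the groups speak for 1 tumor model. The comparisons ask what each treatment did to the axis, and whether a combination differed from its single agents.

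Cytokines of this family share the common gamma chain, encoded by Il2rg, and pair it with a private or semi-private chain. IL-15 is mostly held at the cell surface by its receptor alpha chain, Il15ra, and presented to neighboring T and NK cells that carry Il2rb and Il2rg, a pair of chains also used by IL-2. IL-21, made mainly by activated CD4+ T cells, binds Il21r with the same gamma chain. The kinases Jak1 and Jak3 then phosphorylate STAT proteins, Stat5a and Stat5b foremost for IL-2 and IL-15, and STAT5 induces Cish, which dampens the signal in return. The receptor chains of this family are best known on lymphocytes, while Il15, Il15ra and both STAT5 genes are also used by myeloid and non-hematopoietic cells.

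The libraries held 23541733 to 33950805 counts, with a median of 28797552. One of them, Cisplatin+ICB replicate 1, stood apart from the rest: its median Pearson r with the other tumors over log2 CPM was 0.851, against 0.931 to 0.965 for 26 tumors. It had the lowest Il2rb, Il2rg, Stat5a and Stat5b of all 28 tumors and the highest Il15. Its CD8 marker sum was 5.20 CPM (counts scaled to a common library total after TMM normalization), and its Msln was 654 CPM, the highest of any tumor. 5-FU+ICB replicate 5 had a similarly low median r of 0.853, with the highest skeletal muscle marker sum at 3922 CPM. Its B cell marker sum was 770 CPM, against at most 103 CPM in any other tumor, and Cxcr5, a gene of B cells and follicular helper T cells, was at 82.9 CPM, against at most 10.5 CPM. It also had the highest Il2rg, Il21, Il21r and Stat5b of all 28 tumors. Leaving it out left the count of called members at 8 for 5-FU+ICB against PBS, against 18.8% of genes called higher without it. The main member results that rest on Cisplatin+ICB replicate 1 are given with and without it, while pathway and marker calls are given only with it. Of the mesothelial markers, Msln was at 34.4 to 654 CPM in all but 5-FU+ICB replicate 5, where it was lowest, while Wt1 stayed at or below 2.78 CPM and Krt19 at or below 1.86 CPM in all but 1 tumor (48.9 CPM in that same tumor), so the label rested on Msln alone.

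Against PBS, all 9 genes of the axis were called higher after ICB, 8 after 5-FU+ICB, 4 after 5-FU, 4 after Cisplatin+ICB and 0 after Cisplatin. A gene was called when the edgeR quasi-likelihood test gave a Benjamini-Hochberg adjusted p under 0.05 over all genes tested and the log2 fold change was beyond 0.5. By this rule ICB raised 9 of 9 genes, where 19.0% of all tested genes were called higher. Among them, Il21 reached the test through treated tumors, as PBS tumors held at most 4 counts of it. The same 9 tumors are in both deposited matrices, and this fit used the one with the 5-FU groups. In the one with the cisplatin groups 7 of 9 were called (background 15.5%), all but Il15 and Stat5b. 5-FU raised 4 of 9 (background 9.98%), 5-FU+ICB 8 of 9 (background 21.9%) and Cisplatin+ICB 4 of 9 (background 4.70%). Single tumors moved the smaller counts, and with them the share of all genes called higher (3.43% to 10.5% for 5-FU, 0% to 18.2% for Cisplatin+ICB): that of 5-FU was 2 without PBS replicate 1 or 3 or 5-FU replicate 3 or 5, and that of Cisplatin+ICB was 0 without PBS replicate 1, 3 or 4, 2 without PBS replicate 2, 1 without Cisplatin+ICB replicate 2, 4 or 5 and 7 without Cisplatin+ICB replicate 1. None of the 9 was called lower, and all 5 comparisons share the same 4 PBS tumors. The median log2 fold change of the 9 genes was 1.92 for ICB, 1.04 for 5-FU, 2.10 for 5-FU+ICB and 1.54 for Cisplatin+ICB, where the median over all tested genes was -0.03, -0.01, -0.04 and 0.03. Cisplatin alone gave a median of 0.07 over the members and 0 calls by edgeR, with 0 members at an unadjusted p under 0.05 (1.78% of all genes) and 0 by DESeq2 (0.0114% of all genes), in a comparison where edgeR called 0% of all genes. In whole tumor RNA, more cells that carry a transcript cannot be told apart from more transcript per cell, and this holds for every value below. The summed level of the T cell markers moved in the same direction, from 13.9 to 26.5 CPM in PBS tumors to 72.2 to 307 CPM after ICB, and its part in the result was not tested.

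**Figure D1:**
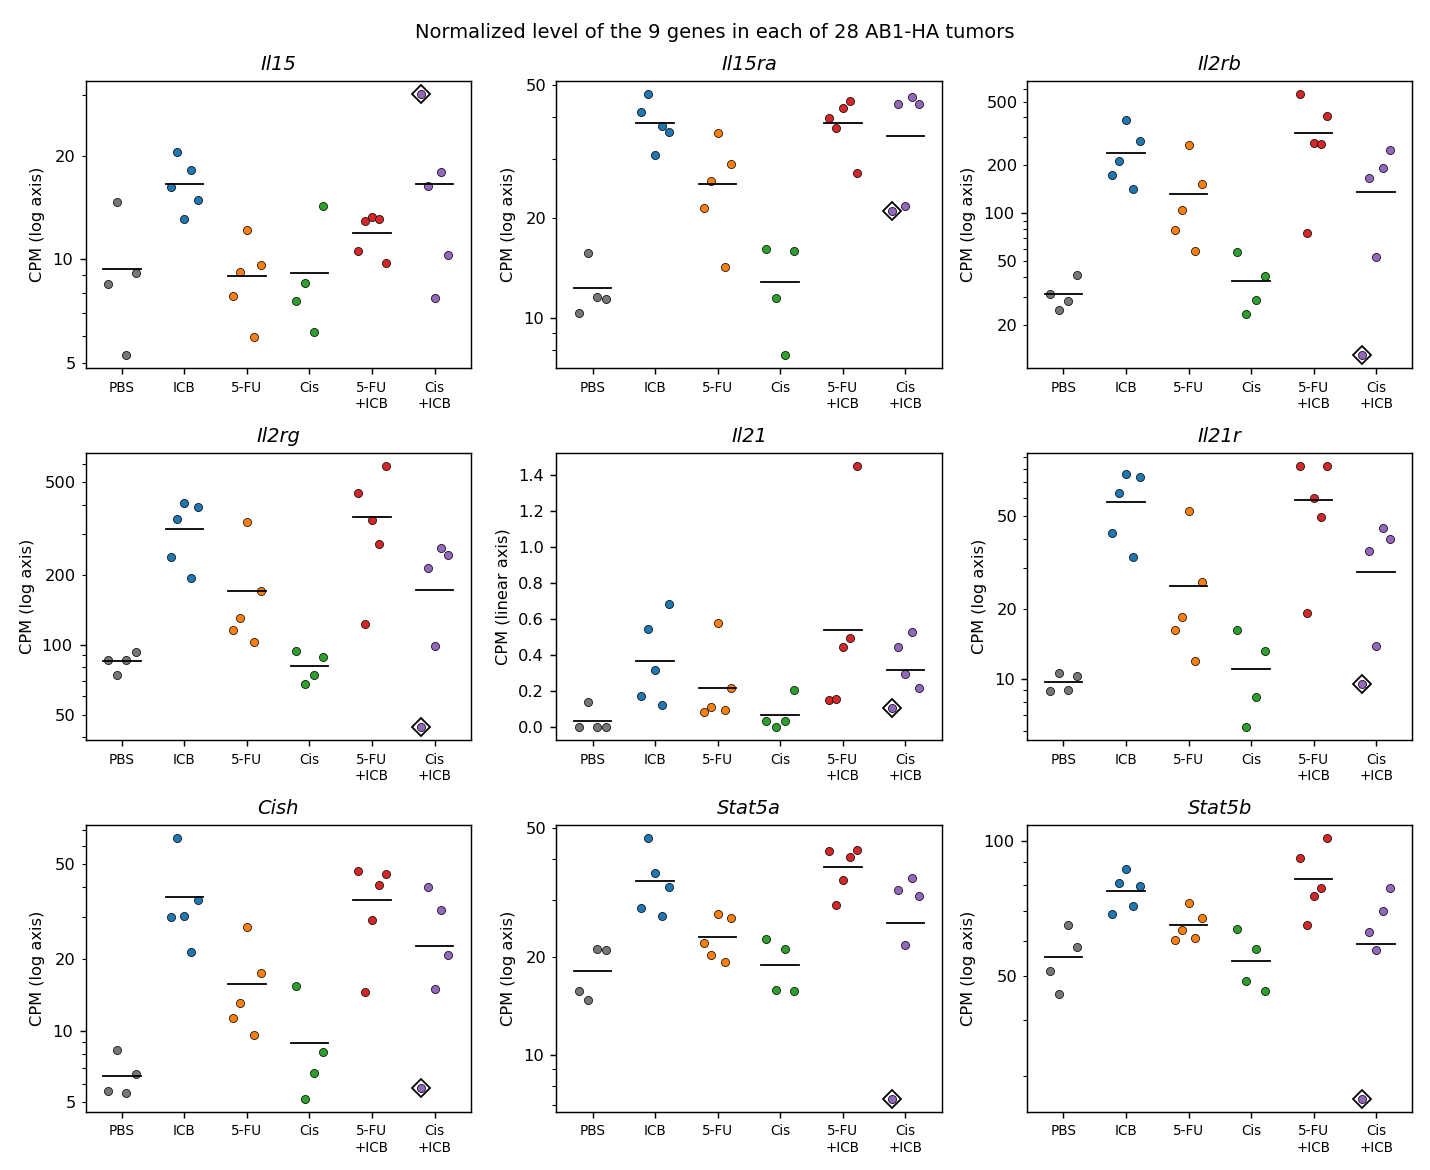
Level of each of the 9 genes in each of the 28 tumors, by treatment group, in TMM-normalized CPM, on a log axis except for Il21. Each point is 1 tumor, horizontal lines are group means, and the diamond marks Cisplatin+ICB replicate 1, which has the lowest Il2rb (12.9 CPM) and the highest Il15 (30.2 CPM). The 5 ICB tumors sit above all 4 PBS tumors for 7 genes, all but Il15 and Il21.

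**Figure D2:**
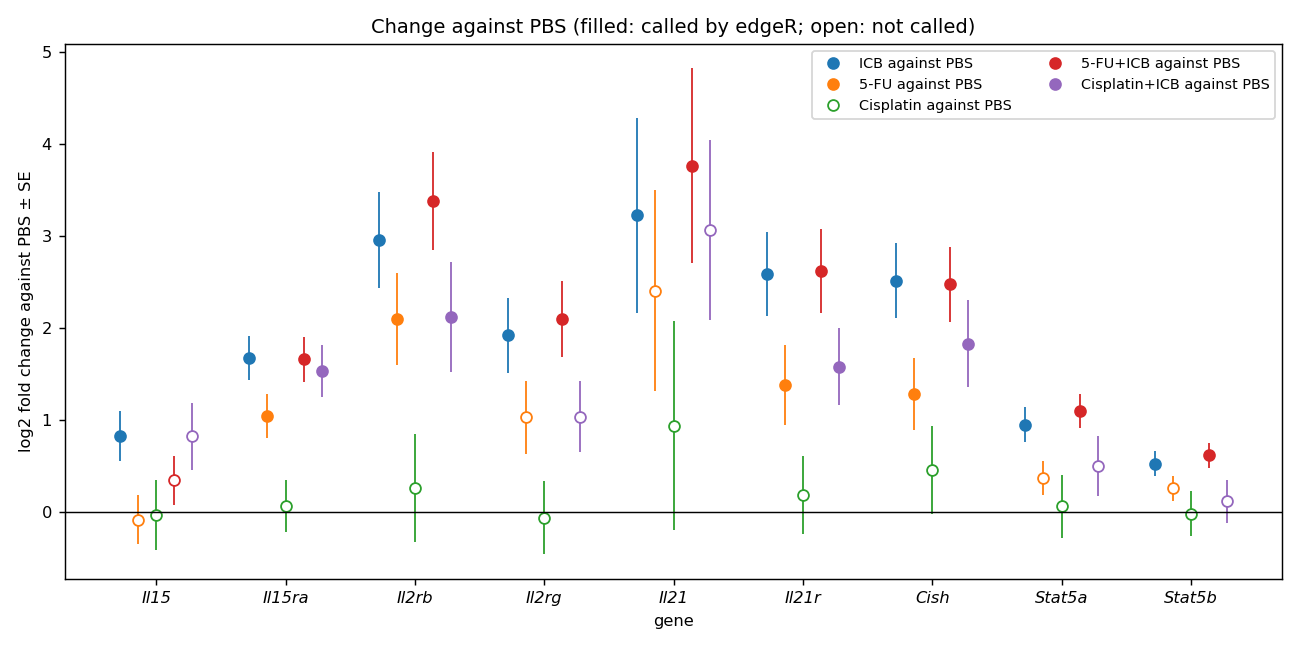
Log2 fold change of each gene against PBS with its standard error, for the 5 treatments. Filled points were called by edgeR and open points were not. Of the 5 treatments Il2rb had its largest change after 5-FU+ICB (3.38), where only Il21 was higher, and all 9 cisplatin points are open.

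Il15, the ligand gene, was called in 1 comparison with PBS, that of ICB. It lies on the minus strand at chr8:82331632-82403222 (GRCm38, as are all positions below), and its transcripts shared no 31-base word with any other gene. In PBS tumors Il15 was at 8.48, 14.7, 5.28 and 9.14 CPM, and in ICB tumors at 16.3, 20.5, 13.1, 18.2 and 14.9 CPM. The groups overlapped through the highest PBS tumor. The log2 fold change was 0.83 (SE 0.27), with an adjusted p of 0.0211 by edgeR. This call was lost when PBS replicate 1, 3 or 4 was left out, with adjusted p of 0.0594, 0.0631 and 0.0501. In 5-FU tumors Il15 was at 7.84, 9.17, 12.2, 5.96 and 9.65 CPM, within the range of PBS tumors, and the difference of -0.08 (SE 0.27, interval -0.60 to 0.44) had an adjusted p of 0.838.

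After both agents Il15 lay between the single-agent levels. In 5-FU+ICB tumors it was at 10.6, 12.9, 13.3, 13.1 and 9.75 CPM, a log2 fold change of 0.34 (SE 0.27) against PBS with an edgeR adjusted p of 0.297. Without PBS replicate 2, the highest of that group, the same change was 0.68 with an adjusted p of 0.0419. Against ICB alone the difference was -0.48 (SE 0.25, adjusted p 0.511), the only member whose point estimate in that comparison lay below -0.1. In Cisplatin+ICB tumors Il15 was at 30.2, 16.3, 7.72, 18.0 and 10.3 CPM. The first of these is the tumor that stood apart, and the log2 fold change against PBS was 0.82 (adjusted p 0.180 by edgeR) with it and 0.54 (adjusted p 0.222) without it.

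Il21, the helper T cell ligand (minus strand, chr3:37222759-37232636), was close to the limit of detection. PBS tumors held 0, 4, 0 and 0 counts, and Cisplatin tumors 1, 0, 1 and 7 counts. ICB tumors held 5, 19, 8, 4 and 18 counts, and 5-FU+ICB tumors 4, 5, 11, 16 and 29.4. All 5 5-FU+ICB tumors were above all 4 PBS tumors in CPM, while 1 ICB tumor was below the highest PBS tumor. The lowest 5-FU+ICB tumor, the lowest ICB tumor and the highest PBS tumor each held 4 counts. Their order in CPM (0.149, 0.122 and 0.136) thus comes from library scaling alone. edgeR called Il21 higher after ICB (adjusted p 0.0220) and after 5-FU+ICB (adjusted p 0.00924), and not after 5-FU (adjusted p 0.108) or Cisplatin+ICB (adjusted p 0.0679, and 0.0155, a call, without Cisplatin+ICB replicate 1). Il21 passed the low-count filter through treated tumors, so its calls depend on the groups where it is high. With no low-count filter it was still called after ICB, as were all 9 members (9.70% of all genes higher). With so few counts in PBS tumors the fitted log2 fold changes, 3.22 (SE 1.06) for ICB and 3.76 (SE 1.06) for 5-FU+ICB, depend on single reads, and ran from 2.81 to 6.42 and from 3.01 to 6.95 with 1 tumor left out. The ICB call was lost without PBS replicate 1, 3 or 4, with adjusted p of 0.0631, 0.0568 and 0.0588. For 5-FU, leaving out PBS replicate 2 gave an adjusted p of 0.0458.

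Il15ra, which holds IL-15 at the surface of presenting cells, rose about as much in all 3 groups given ICB. It lies on the plus strand at chr2:11705290-11734317. Levels were 10.4, 15.7, 11.6 and 11.4 CPM in PBS tumors and 41.5, 46.9, 30.8, 37.7 and 36.0 CPM in ICB tumors, without overlap. In 5-FU+ICB tumors they were 39.8, 37.2, 42.7, 44.8 and 27.2 CPM, and in Cisplatin+ICB tumors 20.9, 43.7, 21.7, 45.9 and 43.9 CPM. Each of these tumors was above every PBS tumor. The log2 fold changes against PBS were 1.67 (SE 0.24) for ICB, 1.66 (SE 0.24) for 5-FU+ICB and 1.54 (SE 0.28) for Cisplatin+ICB, with edgeR adjusted p of 0.000235, 0.000292 and 0.0119. The Cisplatin+ICB call was lost without PBS replicate 1, 3 or 4 (adjusted p 0.0664, 0.0606 and 0.0572), and the change was 1.74 (adjusted p 0.000897) without the tumor that stood apart. 5-FU alone gave 21.3, 25.8, 35.8, 14.2 and 28.9 CPM, where 4 of 5 tumors exceeded all PBS tumors, and a log2 fold change of 1.04 (SE 0.24, adjusted p 0.00794 by edgeR). Cisplatin tumors, at 16.1, 11.5, 7.75 and 15.9 CPM, spanned the PBS range (difference 0.07, interval -0.49 to 0.63).

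Il2rb, the signaling chain shared by the IL-2 and IL-15 receptors, had the largest change of the abundant members in all 4 comparisons with calls. It lies on the minus strand at chr15:78479256-78495271. PBS tumors were at 31.4, 24.7, 28.4 and 41.2 CPM, and ICB tumors at 174, 212, 386, 142 and 285 CPM. 5-FU tumors were at 79.3, 106, 268, 58.4 and 153 CPM, all above the highest PBS tumor. In 5-FU+ICB tumors the spread was widest, at 561, 76.0, 276, 272 and 410 CPM, and replicate 2 lay below every ICB tumor. The log2 fold changes were 2.95 (SE 0.52) for ICB, 2.10 (SE 0.50) for 5-FU and 3.38 (SE 0.53) for 5-FU+ICB, with edgeR adjusted p of 0.000667, 0.00938 and 0.000471. Cisplatin tumors were at 57.4, 23.3, 28.8 and 40.6 CPM, with a difference of 0.26 and a wide interval of -0.89 to 1.42.

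Cisplatin+ICB tumors split for Il2rb, with 12.9 CPM in the tumor that stood apart and 166, 53.4, 193 and 252 CPM in the others. The log2 fold change against PBS was 2.12 (SE 0.60, adjusted p 0.0441 by edgeR) and reached 2.49 (adjusted p 0.00134) without that tumor. The call did not survive the removal of several single tumors, with adjusted p of 0.129, 0.0910, 0.126 and 0.0919 without PBS replicate 1, 2, 3 and 4, and 0.0935, 0.0993 and 0.110 without Cisplatin+ICB replicate 2, 4 and 5. The mean of the other 4 Cisplatin+ICB tumors was 166 ± 83.3 CPM (SD, n = 4), where the ICB mean was 240 ± 97.5 CPM (SD, n = 5).

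Il2rg, the common gamma chain itself, followed Il2rb across tumors but with smaller changes. The gene lies on the minus strand at chrX:101264378-101268255. Its mean was 84.9 ± 7.75 CPM (SD, n = 4) in PBS, 315 ± 94.9 (SD, n = 5) in ICB, 171 ± 95.9 (SD, n = 5) in 5-FU and 355 ± 176 CPM (SD, n = 5) in 5-FU+ICB tumors. The lowest tumor was at 193 CPM after ICB and at 122 CPM after 5-FU+ICB, both above the highest PBS tumor at 93.0 CPM. Il2rg rose by a log2 fold change of 1.92 (SE 0.41) after ICB and 2.10 (SE 0.41) after 5-FU+ICB (edgeR adjusted p 0.00195 and 0.00139). After 5-FU all 5 tumors, from 103 to 337 CPM, lay above PBS, and yet the difference of 1.03 (SE 0.40) had an adjusted p of 0.0625 by edgeR and 0.0323 by DESeq2. Without 5-FU replicate 4 the edgeR adjusted p was 0.0481. In Cisplatin+ICB the difference was 1.04 (adjusted p 0.111 by edgeR, 0.0462 by DESeq2), and 1.36 with an edgeR adjusted p of 0.00316 without the tumor that stood apart, which was at 44.3 CPM.

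Il21r, the IL-21 receptor chain on the plus strand at chr7:125603429-125633570, had a tight baseline. PBS tumors were at 8.92, 10.7, 9.04 and 10.3 CPM, and Cisplatin tumors at 16.3, 6.25, 8.42 and 13.2 CPM. ICB tumors were at 42.3, 63.0, 75.9, 33.6 and 73.6 CPM, and 5-FU+ICB tumors at 82.1, 19.3, 60.2, 49.8 and 82.4 CPM, with no tumor of either group in the PBS range. The log2 fold changes were 2.59 (SE 0.45) and 2.62 (SE 0.45), with edgeR adjusted p of 0.000625 and 0.000762. After 5-FU alone Il21r was at 16.3, 18.5, 52.9, 12.0 and 26.3 CPM, a log2 fold change of 1.38 (SE 0.43, adjusted p 0.0278 by edgeR). That call was lost without PBS replicate 1, 2 or 3 (adjusted p 0.0761, 0.0683 and 0.0533) or without 5-FU replicate 3 or 5 (0.0905 and 0.0539). After Cisplatin+ICB it was at 9.54, 35.6, 13.9, 44.8 and 40.1 CPM, a log2 fold change of 1.58 (SE 0.42, adjusted p 0.0354 by edgeR). Without the tumor that stood apart the change was 1.87 (adjusted p 0.00250), and without any one of the 4 PBS tumors the adjusted p lay between 0.0638 and 0.118. It was 0.0862, 0.0935 and 0.0867 without Cisplatin+ICB replicate 2, 4 or 5.

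The transducers Stat5a and Stat5b lie 8626 bases apart on chromosome 11, on opposite strands (Stat5a plus, chr11:100859351-100885169; Stat5b minus, chr11:100780731-100850724). Both rose after ICB and after 5-FU+ICB, by less than any receptor chain. Stat5a was at 15.7, 14.7, 21.1 and 21.0 CPM in PBS tumors, 28.4, 46.5, 36.2, 26.6 and 32.8 CPM in ICB tumors, and 42.4, 28.9, 34.5, 40.7 and 42.6 CPM in 5-FU+ICB tumors. All 10 tumors of the latter 2 groups were above every PBS tumor. The log2 fold changes of Stat5a were 0.95 (SE 0.19) and 1.10 (SE 0.19), with edgeR adjusted p of 0.00121 and 0.000722. Stat5b, at 55.1 ± 8.48 CPM (SD, n = 4) in PBS, reached 77.6 ± 7.19 CPM (SD, n = 5) after ICB and 82.6 ± 14.5 CPM (SD, n = 5) after 5-FU+ICB. Its log2 fold changes were 0.53 (SE 0.13) and 0.62 (SE 0.13), with edgeR adjusted p of 0.00527 and 0.00221. The ICB value was near the fold limit and was 0.47 and 0.49 without PBS replicate 2 or ICB replicate 3, below the limit for a call.

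After 5-FU alone the differences were 0.37 for Stat5a (SE 0.18, adjusted p 0.144 by edgeR) and 0.26 for Stat5b (SE 0.13, adjusted p 0.152). Cisplatin+ICB gave 0.50 for Stat5a (SE 0.33, adjusted p 0.396 by edgeR) and 0.12 for Stat5b (SE 0.23, adjusted p 0.849). The tumor that stood apart, at 7.32 CPM for Stat5a and 26.7 CPM for Stat5b, was far below the other 4, which averaged 29.8 ± 5.67 and 67.2 ± 9.31 CPM (SD, n = 4). Without it Stat5a rose by 0.81 (adjusted p 0.00678 by edgeR), and Stat5b differed by 0.37 (adjusted p 0.0361), below the fold limit.

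Cish, a STAT5 target whose product blocks further STAT5 activation, is commonly used as a readout of STAT5 activity. It lies on the plus strand at chr9:107296026-107302784. The stretch from chr9:107296654-107296683 (RefSeq sequence, GRCm38.p6, plus strand, 5′ to 3′) is shown because it starts 5 bases before the RefSeq start site of Cish and holds a pair of matches to the palindrome bound by STAT5, TTCNNNGAA, in capitals.
Cish: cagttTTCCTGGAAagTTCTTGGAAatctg
In a longer transcript of the GENCODE M21 annotation these bases lie in the 5′ UTR, within exon chr9:107296026-107297034. The palindrome reads the same on both strands. Among 32851 windows of 250 bases before to 50 after a start site, 8.30% held it at least once and 0.457% at least 2 times. Of the members, 7 matched a window (10 windows in all; not Il15 and Il2rb), and Cish was the one that held the palindrome. A match is a description of the letters and says nothing of binding in these tumors.

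Cish levels were low and even at baseline, at 5.56, 8.27, 5.49 and 6.58 CPM in PBS tumors. ICB tumors were at 30.2, 64.8, 30.2, 21.4 and 35.5 CPM, and 5-FU+ICB tumors at 46.9, 14.6, 29.2, 41.1 and 45.7 CPM. Every one of these 10 tumors exceeded every PBS tumor, and Cish rose by a log2 fold change of 2.52 (SE 0.41) and 2.48 (SE 0.41), with edgeR adjusted p of 0.000439 and 0.000607. 5-FU alone gave 11.3, 13.1, 27.2, 9.59 and 17.6 CPM, without overlap with PBS, and a log2 fold change of 1.29 (SE 0.39, adjusted p 0.0243 by edgeR). Without PBS replicate 1 or 3, or 5-FU replicate 3 or 5, its adjusted p was 0.0735, 0.0513, 0.0690 and 0.0523. Cisplatin tumors were at 15.4, 5.18, 6.64 and 8.17 CPM, with 1 tumor above PBS (difference 0.46, interval -0.48 to 1.39). Cisplatin+ICB tumors were at 5.73, 40.1, 15.0, 32.3 and 20.8 CPM, a log2 fold change of 1.83 (SE 0.47, adjusted p 0.0329 by edgeR), or 2.14 (adjusted p 0.00208) without the first. Without any one PBS tumor the adjusted p lay between 0.0502 and 0.114, and it was 0.0888, 0.0803 and 0.0612 without Cisplatin+ICB replicate 2, 4 or 5.

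Over all 9 genes, groups that did not overlap PBS were counted as well. After ICB 7 of 9 members had no overlap, where 37.4% of all genes had none. For 5-FU the count was 4 of 9 (background 27.0%), for 5-FU+ICB 7 of 9 (background 25.5%), for Cisplatin+ICB 1 of 9 (background 8.13%) and for Cisplatin 0 of 9 (background 3.44%). The 5-FU+ICB count includes Il21, which was apart from PBS by library scaling alone. The Cisplatin+ICB count rests on the tumor that stood apart. The other 4 lay above every PBS tumor for Il15ra, Il2rb, Il2rg, Il21, Il21r, Cish and Stat5a, and the share of all genes without it was not taken. For Cisplatin+ICB against PBS, leaving out the tumor that stood apart brought the called members to 7 of 9, with Il15 and Stat5b uncalled, where 18.2% of all genes were then called higher. In the order of group means, 7 members had the 3 groups given ICB first, then 5-FU, then Cisplatin and PBS in either order. For Il15 the 5-FU mean was the lowest of all, and for Stat5b the 5-FU mean (65.0 CPM) was above that of Cisplatin+ICB (59.1 CPM), an order that turned without Cisplatin+ICB replicate 1, as the other 4 tumors averaged 67.2 CPM. Neighboring groups in this order overlapped for every member, except that all 5-FU tumors lay above the next group for Il2rb (Cisplatin) and Il2rg (PBS).

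The next question was whether a combination differed from its parts. Against ICB alone, 5-FU+ICB differed by -0.48 (Il15) to 0.54 (Il21) on the log2 scale, and 0 of 9 genes were called by edgeR, with 0 at an unadjusted p under 0.05 and 0 by DESeq2, where the shares of all genes were 0.229%, 10.9% and 1.58%. The intervals leave room for sizable differences, such as -0.45 to 1.29 for Il2rb and -0.73 to 0.80 for Il21r, and were narrower for Il15ra (-0.44 to 0.41) and Stat5b (-0.15 to 0.34). Against 5-FU alone all 9 differences were positive, from 0.36 (Stat5b) to 1.36 (Il21; 0.60 to 2.10 with 1 tumor left out), and 0 were called by edgeR (background 0.0112% called higher), while 7 of 9 had an unadjusted p under 0.05 (background 16.6%). DESeq2 called Cish (1.19, adjusted p 0.0475) and Stat5a (0.73, adjusted p 0.0146) in this comparison, where it called 2.13% of all genes higher. Stat5a was also without overlap (as were 1.42% of all genes), at 22.1, 20.3, 27.1, 19.2 and 26.4 CPM after 5-FU, all below the lowest 5-FU+ICB tumor at 28.9 CPM. Here 2 libraries decided the edgeR count: without 5-FU replicate 3, the 5-FU tumor with the most Il2rb, or without 5-FU+ICB replicate 2, the 5-FU+ICB tumor with the least, 5 members were called (Il2rb, Il2rg, Il21r, Cish and Stat5a), where 3.38% and 8.09% of all genes were then called higher. Their log2 fold changes were then 1.70, 1.48, 1.71, 1.49 and 0.80, or 1.53, 1.29, 1.47, 1.40 and 0.83.

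Cisplatin+ICB against ICB gave 0 members called by edgeR (background 0%) or DESeq2 (background 0.324%), and 2 members, Il2rg (-0.87, adjusted p 0.296 by edgeR) and Il21r (-1.0, adjusted p 0.291), at an unadjusted p under 0.05 (background 15.9%). Without the tumor that stood apart these were -0.59 and -0.74. Against Cisplatin alone all 9 were positive, from 0.13 (Stat5b; 0.38 without Cisplatin+ICB replicate 1) to 2.13 (Il21; 1.77 to 3.70 over 7 fits with 1 tumor left out), with 0 called by edgeR (background 0%), 7 at an unadjusted p under 0.05 (background 14.2%) and 3 called by DESeq2 (background 3.62%), Il15ra (1.53, adjusted p 0.000120), Il2rb (1.93, adjusted p 0.0236) and Il21r (1.46, adjusted p 0.0236). All 5 Cisplatin+ICB tumors exceeded all 4 Cisplatin tumors for Il15ra, as for 3.35% of all genes in either direction. When Cisplatin+ICB replicate 1 was left out, edgeR called 6 of 9, where 8.31% of all genes were called higher: Il15ra (1.65), Il2rb (2.21), Il2rg (1.40), Il21r (1.67), Cish (1.68) and Stat5a. Without Cisplatin+ICB replicate 3 it called Il15ra (1.60) and Il21r (1.57), where 2.33% of all genes were called higher.

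The chemotherapies were compared directly in the joined fit. 5-FU against Cisplatin gave 0 members called by edgeR (background 0.0918%), 4 at an unadjusted p under 0.05 (background 15.5%) and 2 called by DESeq2 (background 2.83%), Il15ra (1.02, adjusted p 0.0197) and Il2rb (1.87, adjusted p 0.0393). For Il2rb the 5-FU tumors, from 58.4 to 268 CPM, all lay above the Cisplatin tumors, the highest of which was at 57.4 CPM, and 12.5% of all genes had no overlap here. Without Cisplatin+ICB replicate 1, which shares the fit but not the comparison, edgeR called the same 2 genes (Il15ra 0.97, Il2rb 1.82; background 2.84%). 5-FU+ICB against Cisplatin+ICB ranged from -0.47 (Il15) to 1.24 (Il2rb), with 0 called by edgeR (background 0.297% either way) or DESeq2 (7.51%) and 5 at an unadjusted p under 0.05 (25.7%). Without Cisplatin+ICB replicate 1 the differences were -0.13 for Il15 and 0.94 for Il2rb. Without 5-FU+ICB replicate 2, edgeR called Il2rg (1.26) and Il21r (1.25), where it called 6.29% of all genes higher.

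Whether the agents added up on the log scale was tested as an interaction. With 5-FU the 9 estimates were all negative, from -1.87 (Il21; -5.06 without PBS replicate 2 and -1.13 without 5-FU replicate 3) to -0.17 (Stat5b; -0.0778 without 5-FU+ICB replicate 2 and -0.26 without 5-FU+ICB replicate 5), so the point estimates put the combination below the sum of both single effects. No member was called by edgeR (background 0.0893% either way), 4 had an unadjusted p under 0.05 (background 23.9%), and DESeq2 called Il15ra lower (-1.11, adjusted p 0.0223; background 8.90% either way). The edgeR value for Il15ra was -1.06 (SE 0.32, adjusted p 0.0761), and that for Il2rb -1.68 (SE 0.65, adjusted p 0.130). With cisplatin the lowest estimate was -1.19 (Il21r; -0.95 without Cisplatin+ICB replicate 1), with 0 members called by edgeR (background 0%) or DESeq2 (0.00285%) and 0 at an unadjusted p under 0.05 (7.14%).

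To set the members beside the leukocyte content of each tumor, their log2 CPM was taken relative to Ptprc, the pan-leukocyte gene for CD45, in the same tumor, and the values below are changes in this difference from its mean in PBS tumors. Ptprc itself was 1.96 higher after ICB, 0.95 after 5-FU, 1.89 after 5-FU+ICB and 1.27 after Cisplatin+ICB in mean log2 CPM. The median change of the 9 genes relative to Ptprc was near 0, at -0.12, 0.04, -0.01 and 0.05 in the same comparisons. These values hold for Ptprc as reference, since the other pan-leukocyte markers did not all move alike. Coro1a ran from 71.1 to 231 CPM in PBS and from 160 to 353 CPM in ICB tumors. Laptm5 ran from 132 to 260 CPM and from 600 to 1570 CPM. In Cisplatin+ICB replicate 1 Laptm5 was at 41.4 CPM, Cd53 at 324 CPM and Coro1a at 538 CPM. Il2rb relative to Ptprc was higher than the PBS mean by 0.90 after ICB (tumors from 0.58 to 1.36), 0.95 after 5-FU (0.76 to 1.26) and 1.21 after 5-FU+ICB (0.75 to 1.83), where PBS tumors ran from -0.53 to 0.34. None of the tumors of these 3 groups overlapped PBS, while Cisplatin+ICB tumors (mean 0.26) ran from -1.62 to 1.04 and did. The -1.62 is the tumor that stood apart, and it lowers that mean. Before centering, Cisplatin+ICB replicates 2, 4 and 5 were at -0.75, -0.71 and -0.52, above every PBS tumor (-2.09 to -1.22). Replicate 3, at -1.37, lay within the PBS range. Il21r relative to Ptprc was higher than the PBS mean by 0.53 after ICB (0.33 to 0.78, PBS -0.13 to 0.18), while Il2rg was at -0.12, -0.08 and -0.01 in these 3 groups. Il15, Stat5a and Stat5b relative to Ptprc were lower than the PBS mean after ICB, at -1.07, -1.06 and -1.46. These are descriptions, and a ratio shows unequal change, not which gene moved.

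**Figure D3:**
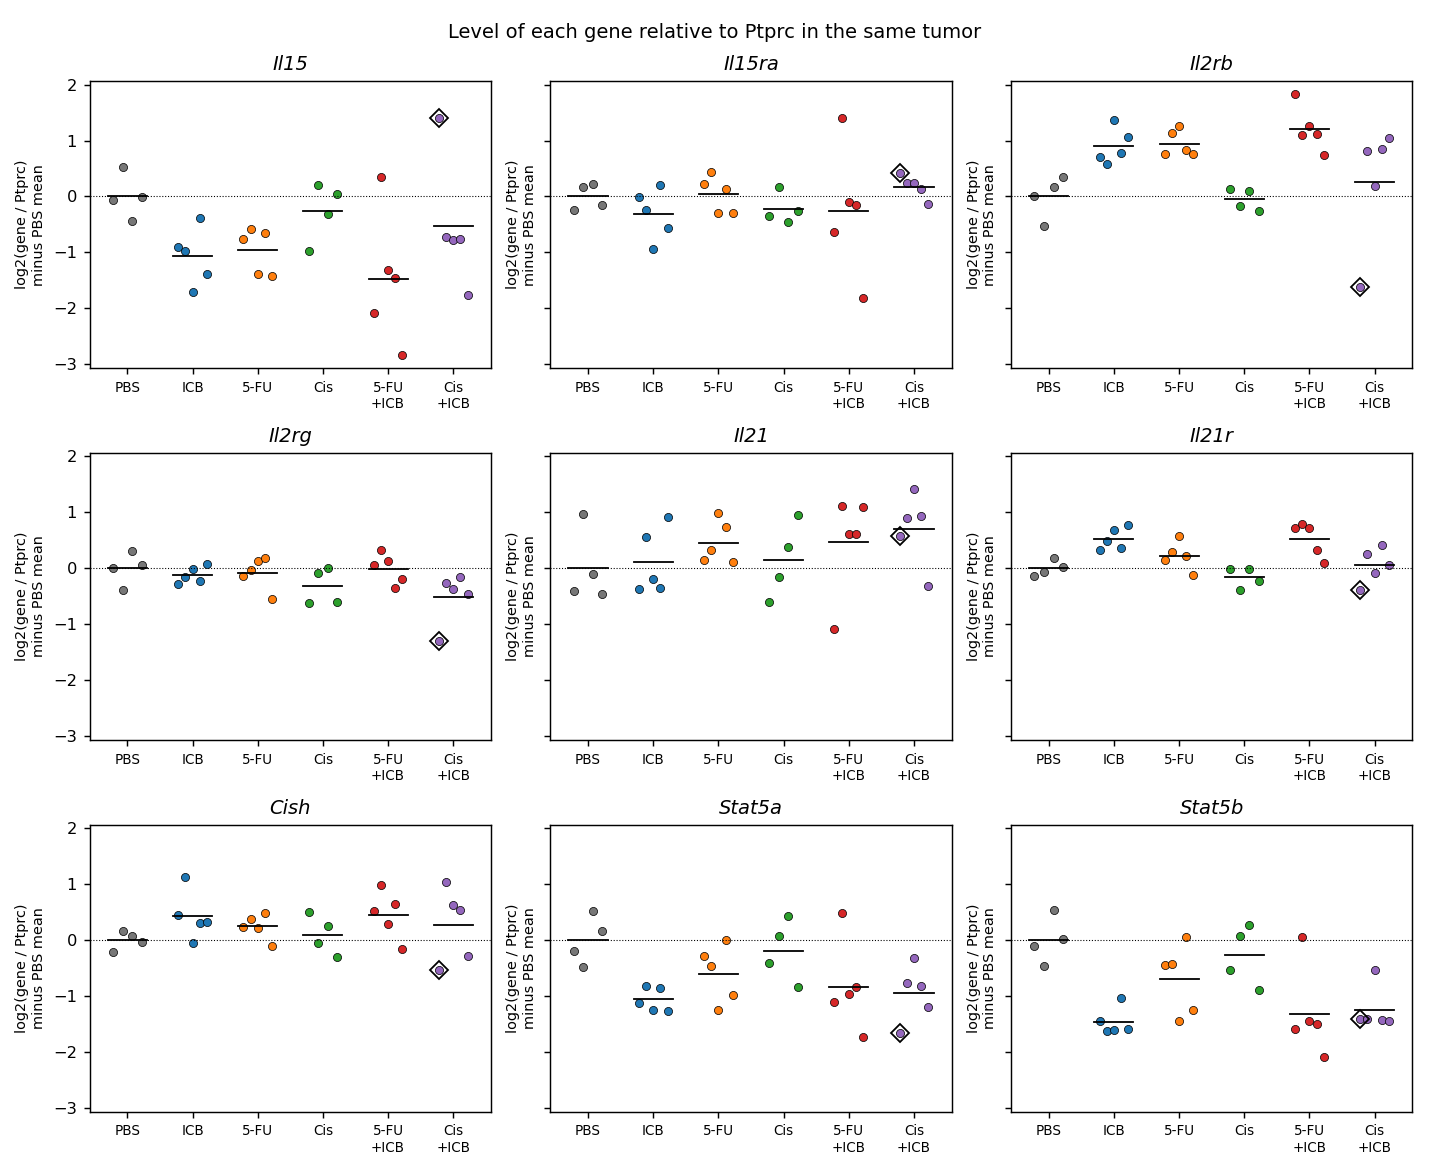
Level of each gene relative to Ptprc in the same tumor, as log2 CPM of the gene minus log2 CPM of Ptprc, centered on the mean of the PBS tumors (dotted line). Each point is 1 tumor, solid lines are group means, and the diamond marks Cisplatin+ICB replicate 1. Il2rb sits above PBS in all ICB, 5-FU and 5-FU+ICB tumors, and Stat5b sits below all PBS tumors in the 5 ICB tumors.

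Partner genes were also compared within each tumor, a step chosen after the values had been seen, over 33 tests of 3 pairs in 11 comparisons. None passed the adjustment: the lowest adjusted p was 0.0524, by a two-sided exact permutation test, shared by 10 of the 33. With 5 against 4 tumors the smallest exact p the design allows is 0.0159, and with 5 against 5 it is 0.00794. Il2rb minus Il2rg was -1.45 ± 0.198 (SD, n = 4) in PBS and -0.43 ± 0.227 (SD, n = 5) in ICB tumors on the log2 CPM scale, without overlap, a difference of 1.02 (exact p 0.0159). The same difference after 5-FU was also 1.02, with 5 of 5 tumors above PBS. For Il15ra minus Il15 the 5 tumors of 5-FU+ICB averaged 1.67 ± 0.176 (SD), and the 5 of ICB 1.22 ± 0.111 (SD), a difference of 0.45 without overlap (exact p 0.00794). Stat5a minus Stat5b was 0.38 higher in 5-FU+ICB than in 5-FU tumors, again without overlap (exact p 0.00794).

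**Figure D4:**
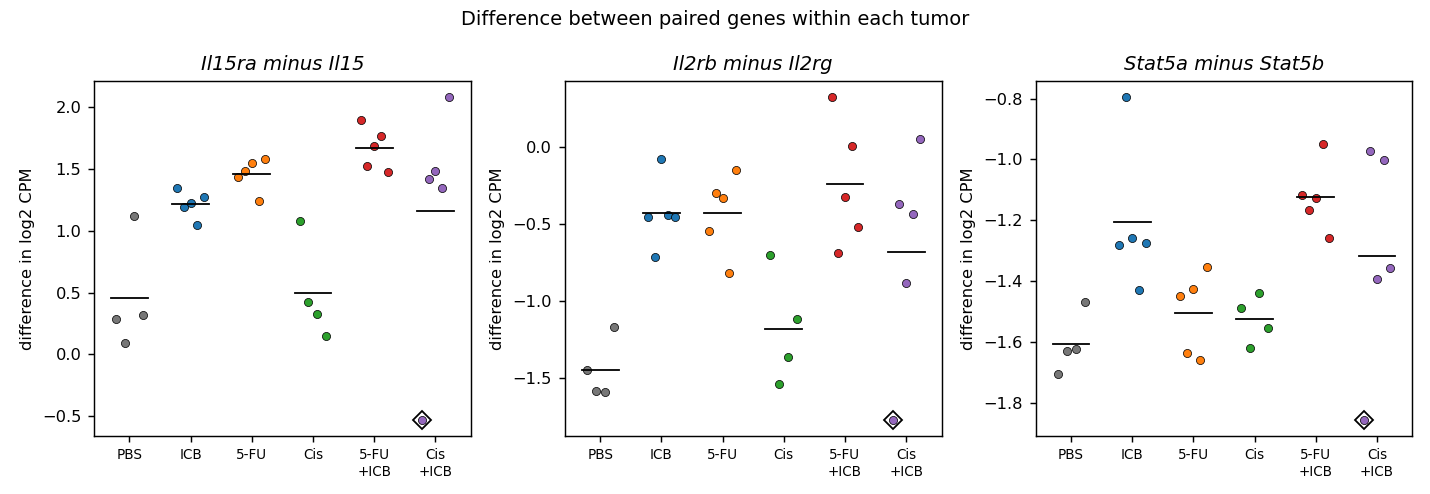
Difference in log2 CPM between partner genes in each tumor, by group, for Il15ra minus Il15, Il2rb minus Il2rg and Stat5a minus Stat5b. Points are tumors, lines are group means, and the diamond marks Cisplatin+ICB replicate 1. Il2rb minus Il2rg is higher in all ICB and 5-FU tumors than in PBS tumors, by a mean of 1.02 in each.

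The remaining genes of the pathway, 24 in 5 lists, were read alongside, and 22 of them were abundant enough to test. After ICB 16 were called higher and 1 lower, where 19.0% of all genes were called higher. After 5-FU 10 were called higher (background 9.98%), after 5-FU+ICB 16 (21.9%), after Cisplatin+ICB 4 (4.70%) and after Cisplatin 0. The same shares apply to the list counts that follow. Their median log2 fold changes were 0.94, 0.68, 1.22, 0.51 and 0.07. In the comparisons of a combination with its parts 0 were called by edgeR. The 4 calls after Cisplatin+ICB (Il2ra, Il7r, Socs1 and Pim1) were lost without PBS replicate 1, 3 or 4, where edgeR called 0% of all genes higher, and this holds for the marker calls after Cisplatin+ICB too.

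Of the other ligands, Il4 and Il7 were not called by edgeR in any comparison with PBS, with Il7 at -0.31 after ICB and -0.76 (adjusted p 0.0854 by edgeR) after 5-FU+ICB. Il2 had at most 15.6 counts in a tumor and did not pass the edgeR filter on low counts. DESeq2, run without that filter, called it higher after ICB, 5-FU and 5-FU+ICB (adjusted p 0.0210, 0.0315 and 0.00306). Il9 had 0 counts in all 28 tumors. Among the other receptor chains, Il2ra, the high-affinity IL-2 receptor chain, rose by a log2 fold change of 2.35 after ICB, 1.77 after 5-FU, 2.82 after 5-FU+ICB and 1.59 after Cisplatin+ICB. Il7r, the IL-7 receptor chain, rose by 3.08, 1.96, 3.34 and 2.36 in the same order. Il4ra rose by 0.94, 0.90 and 1.19 in the first 3 and differed by 0.57 (adjusted p 0.0870 by edgeR) in the last, and Il9r was called in 5-FU+ICB (3.03). Il9r levels were low, at 0.97, 0.19, 0.65, 1.02 and 4.10 CPM in 5-FU+ICB tumors and 0.0339 to 0.365 CPM in PBS tumors. The highest was 5-FU+ICB replicate 5, and replicate 2 lay within the PBS range.

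Jak3, the kinase bound to the common gamma chain, rose by 1.48 after ICB and 1.25 after 5-FU+ICB, and differed by 0.45 (adjusted p 0.198 by edgeR) after 5-FU. Jak1, used by many cytokine receptors, was called after 5-FU+ICB (0.70) and stood below the fold limit after ICB (0.47, adjusted p 0.0258 by edgeR). Stat3, the main transducer of IL-21, rose after ICB, 5-FU and 5-FU+ICB (1.34, 0.78 and 1.34), and Stat6 after ICB (0.72). All 3 SOCS genes, feedback inhibitors related to Cish, rose after ICB and after 5-FU+ICB, from 1.23 (Socs3) to 1.98 (Socs1) and from 1.77 (Socs3) to 1.94 (Socs2). Socs3 alone of them was called after 5-FU (1.50), and Socs1 after Cisplatin+ICB (1.20).

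Of 9 listed STAT5 targets, 7 rose and 1 fell after ICB. The kinase gene Pim1 rose by 1.65, the cytokine gene Osm by 1.84, the survival genes Bcl2 and Mcl1 by 0.57 and 0.74, and the D-type cyclin genes Ccnd2 and Ccnd3 by 0.66 and 0.56. Pim2 rose by 0.93, Myc fell by 0.79 (edgeR adjusted p 0.0217), and Bcl2l1 was at 0.47, below the fold limit. After 5-FU Pim1, Osm, Bcl2, Ccnd2 and Ccnd3 rose (0.79, 1.42, 0.72, 0.78 and 0.60). After 5-FU+ICB the same 5 and Pim2 rose, from 0.68 (Bcl2) to 2.22 (Osm), and after Cisplatin+ICB Pim1 alone was called (1.39).

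**Figure D5:**
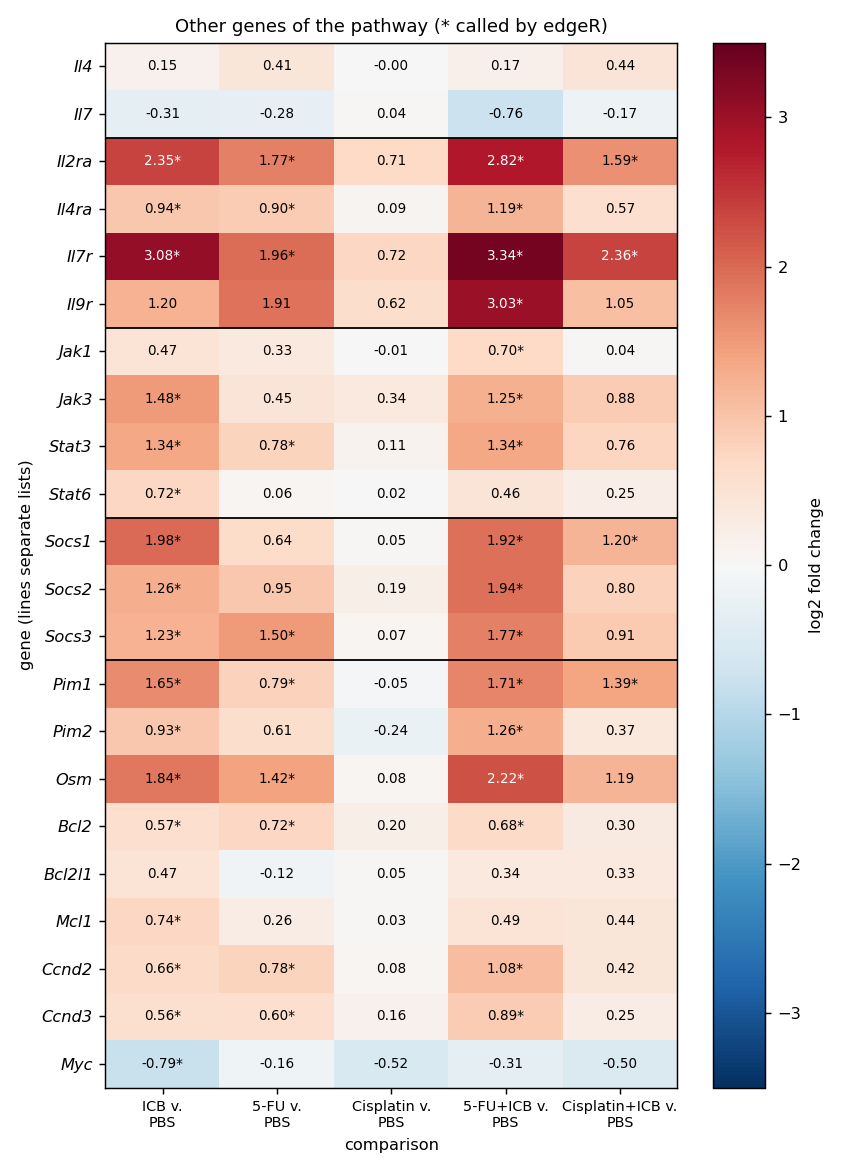
Log2 fold change against PBS of the 22 tested genes of the pathway outside the 9 members, by list from top to bottom: other cytokines, other receptor chains, kinases and other STATs, SOCS feedback genes and STAT5 target genes. Asterisks mark edgeR calls: ICB has 17, of which Myc (-0.79) is the only lower one, and Cisplatin has 0.

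Markers of the cells that could hold these transcripts moved with them, and their part in the results was not tested. The CD8 sum (Cd8a and Cd8b1) was 7.10 to 9.87 CPM in PBS, 88.5 to 315 after ICB, 9.72 to 130 after 5-FU, 17.9 to 626 after 5-FU+ICB, 3.73 to 12.7 after Cisplatin and 5.20 to 171 CPM after Cisplatin+ICB. Both CD8 genes were called higher in 3 of these comparisons with PBS and 1 of 2 after 5-FU. T cell markers were called higher in 4 of 4 after ICB and after 5-FU+ICB, 2 of 4 after 5-FU and 3 of 4 after Cisplatin+ICB. NK cell markers were called in 2 of 4 after ICB and 5-FU, 3 of 4 after 5-FU+ICB and 0 of 4 after Cisplatin+ICB. Their sum was 12.8 to 27.9 CPM in PBS, 25.7 to 52.3 after ICB and 19.4 to 77.9 after 5-FU. Macrophage markers, at 996 to 1362 CPM in PBS and 2009 to 5354 CPM after ICB, were called higher in 4 of 4 after ICB, 1 of 4 after 5-FU and after Cisplatin+ICB and 2 of 4 after 5-FU+ICB. Neutrophil markers were highest after Cisplatin+ICB, at 12.6 to 63.5 CPM with the top value in the tumor that stood apart, and 3 of 3 tested were called higher there. Their sum was 2.55 to 10.2 CPM in PBS and 9.55 to 40.1 CPM after ICB. CD4 and follicular helper markers were called higher in 3 of 4 after ICB and after 5-FU+ICB, 2 of 4 after 5-FU and 1 of 4 after Cisplatin+ICB. B cell markers were called in 3 of 4 after 5-FU+ICB and in 0 of 4 after the other treatments. Their sum was 770 CPM in 5-FU+ICB replicate 5 and 13.4 to 30.0 CPM in the other tumors of that group (13.6 to 17.3 CPM in PBS). Dendritic cell markers were called in 3 of 4 after 5-FU+ICB, 2 of 4 after ICB, 1 of 4 after Cisplatin+ICB and 0 of 4 after 5-FU. Of the non-hematopoietic lists, endothelial markers (67.3 to 126 CPM in PBS, 129 to 255 after ICB and 153 to 612 after 5-FU+ICB) were called in 2 of 4 after ICB, 1 of 4 after 5-FU and 4 of 4 after 5-FU+ICB. Fibroblast markers (641 to 2111 CPM in PBS and 2314 to 4445 after 5-FU) were called in 3 of 4 after 5-FU, 2 of 4 after 5-FU+ICB and 0 of 4 after ICB or Cisplatin+ICB. Skeletal muscle markers were called in 0 of 4 after each treatment, yet their levels differed widely: the sum was 88.0 to 153 CPM in PBS tumors, 0.731 to 2910 after ICB, 6.11 to 1212 after 5-FU (793 or more in 4 of 5), 1.18 to 3922 after 5-FU+ICB (481 or more in 4 of 5) and 41.6 to 792 CPM after Cisplatin+ICB. Their median log2 fold changes were 2.68 after 5-FU and 3.29 after 5-FU+ICB. Msln, the abundant mesothelial marker, was at 271 to 358 CPM in PBS, 52.0 to 217 after ICB, 45.0 to 177 after 5-FU and at most 167 CPM after 5-FU+ICB, with no tumor of these 3 groups in the PBS range. Its log2 fold change was -2.28 after 5-FU+ICB (adjusted p 0.0238 by edgeR, a call) and -1.51 and -1.54 after ICB and 5-FU (adjusted p 0.117 and 0.136). Cisplatin tumors overlapped PBS. Of the Cisplatin+ICB tumors the one that stood apart, at 654 CPM, lay above all PBS tumors and the other 4, from 130 to 266 CPM, lay below them all. Wt1, at far lower levels, was called higher after ICB, 5-FU and both combinations, and Krt19 after 5-FU+ICB. Krt19 was at 48.9 CPM in 5-FU+ICB replicate 5 and at most 1.86 CPM in the other tumors of that group (0.133 to 0.361 CPM in PBS). The marker calls were not repeated without that tumor. After Cisplatin alone edgeR called 0 markers of any list.

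Over the 28 tumors, the genes whose log2 CPM was most like each member were taken from 13334 candidates with a mean of at least 50 counts. The points share treatment groups and cell content, so each Pearson r is a description. Among the genes most like Il2rb were Tbx21 (r 0.99) and Sh2d2a (0.99), genes of T and NK cells, and Il2rg was most like Lcp1 (0.99), B4galnt1 and Hcls1 (0.98 each). Il21r was most like Arhgef3 (0.99), Icam1 (0.98) and Cd8a (0.98), and Cish like Slc15a3 (0.97), Itgax (0.96) and Cyth1 (0.96). Il15ra was most like the interferon-inducible GTPase genes Gm12250 (0.97), Iigp1 (0.97) and Gbp2 (0.96). Il15 was most like Idnk (0.91), H2-M3 (0.90) and Psme1 (0.89). Stat5a was most like Bcl3 (0.98), Tnip1 (0.98) and Atxn7l1 (0.97), Stat5b like Grk2 (0.99), Stk4 (0.98) and Tsc22d4 (0.98), and Il21 like Ubd (0.89), Serpina3h (0.89) and Serpina3i (0.88).

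Among the members themselves, Il2rb and Il2rg had an r of 0.98, Il2rb and Il21r 0.97, and Il21r and Cish 0.95. Il15 was the least like the others. Its r was 0.61 with Il15ra, 0.23 with Il2rb and -0.14 with Stat5b, and became 0.73, 0.51 and 0.26 over 27 tumors without Cisplatin+ICB replicate 1.

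The counts of some members could include reads of another gene. Stat5a and Stat5b share 836 words of 31 bases, which make up most of the 12.3% and 15.2% of their words found elsewhere, so reads from the near-identical stretches were divided between them by the authors' quantification and their values are not fully independent. For Il2rg 28.7% of words were shared with Gm20489, a row with at most 6.85 counts in a tumor. For Cish 10.4% were shared, mostly with the antisense rows Gm17041 and Gm17040 (at most 26.5 and 10.5 counts), and for Il21 9.13%, mostly with Gm12534 (at most 1 count). Whether the quantification used strand is not given in the sources used here. The share was 0.753% for Il21r and 0.257% for Il15ra, and 0 for Il15 and Il2rb.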

How the data were processed

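Whole tumor RNA of 28 mice was sequenced as 100 bp single-end reads. The authors quantified transcripts against GRCm38/mm10 with kallisto 0.46.0 (bcl2fastq 2.20.0.422 is also in the submitters' processing notes) and deposited 2 matrices of estimated counts per gene, compiled with tximport, each with PBS, ICB and 1 chemotherapy with its combination. The 9 shared PBS and ICB tumors were identical in both. Of the values, 23.7% were not whole, and the estimated counts were rounded before testing. Totals of 23541733 to 33950805 per tumor limit precision for Il21 alone among the members.

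edgeR 4.0.16 (R 4.3.3, filterByExpr, TMM, quasi-likelihood test) was fitted per matrix over 4 groups (17916 and 17819 genes tested), and over both joined (18521) for comparisons between chemotherapies. P-values were Benjamini-Hochberg adjusted over all genes tested. A call took an adjusted p under 0.05 with a log2 fold change beyond 0.5 either way. Intervals are approximate 95% intervals from the standard error. The authors' own tool, DESeq2 (1.42.0), was an alternative, with other size factors, low-count filters, sample sets, a replicate block and each tumor left out. CPM is TMM-normalized over 28 tumors, and log2 CPM used a prior count of 2. On data simulated for ICB against PBS (16799 genes), edgeR recovered 49% of genes changed by a log2 of 1 and 86% of those changed by 2, with 2.17% of its calls false. For DESeq2 these were 66%, 95% and 17%. The simulation changed 100 genes at each size and drew genes independently. In the real comparison 19.0% of genes were called higher, so these rates need not carry over.

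All 9 members are named throughout, pathway genes where called or completing a receptor, and the 3 most correlated genes per member with a mean of at least 50 counts, except that 1 gene of each kind is not reported here. The members and lists were chosen with earlier results of these data known. The series text speaks of 5 cisplatin tumors and the labels give 4. 26 gene names read as dates and were not used by name.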

Additional observations from a re-analysis of the deposited data

Results flagged for a closer look

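Among 54 groups of 4 or 5 tumors (9 genes in 6 groups), 5 held a tumor whose gap to its nearest neighbor took up more of the group's range than Dixon's 95% critical value allows. Chance gives about 1 in 20 such groups. Il2rg in 5-FU replicate 3 was at 337 CPM, where the other 4 tumors of that group reached at most 170 CPM. The remaining 4 concern Il21, which rests on few reads: 0.136 CPM in PBS replicate 2 (4 counts, the others 0), 0.579 CPM in 5-FU replicate 3 (13 counts), 0.207 CPM in Cisplatin replicate 4 (7 counts) and 1.45 CPM in 5-FU+ICB replicate 5 (29.4 counts). 5-FU replicate 3 also had the highest Il2rb, Il21r and Cish of its group, and the highest CD8 marker sum (130 CPM).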

How the results depend on the processing

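Over 89 member and pair values and 1448 alternatives, 1327 kept their direction and their side of the threshold, 59 lost a call, 43 gained one and 19 changed sign. The causes were not tested. Of 25 called values none changed sign, and 16 kept the call under every alternative run. Apart from Il21 for 5-FU+ICB against ICB (0.54), the changes of sign were of differences within 0.3 of 0: Il15 after 5-FU was 0.0497 with no low-count filter, 0.00365 with the replicate block, and -0.30 to 0.26 with 1 tumor left out, and Stat5b after Cisplatin+ICB ran from -0.00663 to 0.37 with 1 tumor left out. With 1 tumor left out, Il15ra ran from -0.0724 to 0.244 and Il2rb from -0.0223 to 0.43 for Cisplatin against PBS, and for 5-FU+ICB against ICB Il15ra ran from -0.0953 to 0.0837, Il21 from -0.22 to 0.85, Il21r from -0.13 to 0.26 and Stat5b from -0.00235 to 0.18. Members called with 1 tumor left out numbered 7 to 9 for ICB, 2 to 5 for 5-FU, 8 to 9 for 5-FU+ICB and 0 to 7 for Cisplatin+ICB against PBS, where the share of all genes called higher ran from 14.4% to 20.0%, 3.43% to 10.5%, 17.4% to 25.1% and 0% to 18.2%. They numbered 0 to 5 for 5-FU+ICB against 5-FU, 0 to 6 for Cisplatin+ICB against Cisplatin, 0 to 2 for 5-FU against Cisplatin and 0 to 2 for 5-FU+ICB against Cisplatin+ICB, with shares up to 8.09%, 8.31%, 2.84% and 6.29%. ICB against PBS had 7 calls in the matrix of the cisplatin groups and with all 6 groups joined, and 8 with the replicate block (15.5%, 15.5% and 16.9% of all genes called higher). The block gave 2 calls for 5-FU (7.19%) and 1 for Cisplatin+ICB (0.499%) against PBS. Of 48 same-numbered pairs of tumors, 16 had a correlation of deviations over 0.1 (range -0.782 to 0.751). Differently numbered pairs were not compared, so this count cannot tell whether replicate numbers pair the tumors. With all 6 groups joined 5-FU had 2 calls (2.84%), and Cisplatin+ICB against Cisplatin gained 1 (0.135%). With only the 2 groups compared, Cisplatin+ICB against PBS had 0 calls (0%) and 5-FU against Cisplatin 1 (3.03%). DESeq2 called 2 members for 5-FU+ICB against 5-FU, 3 for Cisplatin+ICB against Cisplatin, 2 for 5-FU against Cisplatin and 1 for the interaction of 5-FU with ICB. Depth limits Il21, whose PBS level rests on 4 counts.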
